A study of Saccharomyces cerevisiae with 22 samples.

Results

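Ribosome biogenesis factors are the proteins that build ribosomes without remaining in them. They were taken here as the genes of Saccharomyces cerevisiae whose R64 standard name begins with UTP, NOP, RRP, NSA, RIX, TSR, RIO, BRX, ERB or EBP followed by a digit. The name rule gave 66 genes, and 51 of them had at least 1 cluster of transcription start sites among the 5195 clusters of the series. A cluster is a short stretch of neighbouring start sites. Where a gene had several clusters, the strongest in wild type was used. That mattered only for NOP1, which had 4 clusters, and its 3 weaker clusters were called in none of the 7 comparisons. The other 15 genes had no cluster assigned to them and were not analysed here (UTP10, UTP13, UTP18, UTP20, NOP4, NOP8, NOP9, NOP12, NOP53, RRP5, RRP8, RRP9, RRP36, RRP43 and RIX7).

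Start sites were mapped by TL-seq, in which caps are removed by the enzyme Cap-Clip and the freed 5′ ends of polyadenylated RNA are sequenced. The yeast were of the W303 background, grew in YPD, and the treated groups received dithiothreitol (DTT) at 5 mM for 1 h. This reducing agent breaks disulphide bonds, which stresses protein folding in the endoplasmic reticulum. All 5 genotypes carried a deletion of a Swi/Snf gene and an integrated copy marked with LEU2. The wild types were swi3Δ; SWI3::LEU2, called SWI3, and snf2Δ; SNF2::LEU2, called SNF2. The mutants were swi3Δ; swi3-E815X::LEU2, snf2Δ; snf2-W935R::LEU2 and snf2Δ; snf2-Q928K::LEU2, called swi3E815X, snf2W935R and snf2Q928K. Swi3 is a scaffold subunit and Snf2 the ATPase of Swi/Snf, a complex that remodels nucleosomes. Each genotype and treatment had 2 replicates, which makes 10 groups and 20 libraries. Per the labels the replicates were collected on separate days. A further 2 SWI3 libraries made without Cap-Clip entered no comparison.

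The deposited tables hold comparisons and no values per library, so depth, SD and n per library are unknown and errors are the authors' standard errors (SE). Table totals lay between 5901941 and 7516016 mean normalized counts, and the median SE at 50 or more counts was between 0.350 and 0.499 log2 units. The wild-type table held the libraries of both wild types, 4 per arm. The swi3E815X tables matched the SWI3 wild type and the snf2 tables the SNF2 wild type, as inferred from the deposited means. Group means below were computed from those tables on the scale of the wild-type table. They are mean normalized counts over 2 libraries, with no SD. Levels are compared within a gene, and between genes they serve only as a measure of depth. Log2 fold changes printed with or without an SE are those of the authors' deposited tables unless a ratio of group means or a difference of effects is named.

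Ribosome assembly starts in the nucleolus, where RNA polymerase I makes the precursor of the large ribosomal RNAs. The small-subunit (SSU) processome folds and cleaves the 5′ part of that precursor. Small nucleolar RNPs (snoRNPs) guide its chemical modification, and other factors assemble the 60S particle, trim RNA ends and escort both subunits to the cytoplasm. Growing yeast spends much of its transcription on ribosomes, and stress or poor nutrients turn the whole set down. The promoters of these genes are known for a pair of short elements, PAC, which the repressors Dot6 and Tod6 bind, and RRPE, which Stb3 binds.

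Each element, taken by itself, was found in the promoters of most members. The search covered the 300 bp before the coding start in the R64 reference genome, on both strands. The core of PAC, GATGAG, was present in 39 of 51 members (76.5%) against 19.1% of 6001 protein-coding genes. The longer form GCGATGAG, which contains the core, was present in 22 members (43.1%) against 4.05% of all genes. RRPE, searched as AAAAATTTT, was present in 31 members (60.8%) against 7.33%. Both core PAC and RRPE were present in 24 members (47.1%) against 3.67%, and at least 1 of them in 46 members (90.2%) against 22.8%. Among 131 ribosomal protein genes the shares were 12.2% for core PAC and 3.82% for RRPE. The 6 exosome members had core PAC in 2 and RRPE in 1. The 15 genes without a cluster had core PAC in 14 (93.3%) and RRPE in 7 (46.7%). A match describes letters and not binding, and the strain is W303 while the letters are those of the reference.

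The stretch of promoter that holds both elements is shown for 8 members whose start cluster was called lower with DTT. These stretches, of 18 to 29 bases, were chosen for display after the values were seen. The letters run 5′ to 3′ on the strand of the gene, and capitals mark RRPE (AAAAATTTT or its reverse complement AAAATTTTT) and core PAC (GATGAG or its reverse complement CTCATC).
BRX1, chrXV:186864-186883, minus strand: AAAAATTTTagatgCTCATC
NOP2, chrXIV:510397-510414, plus strand: AAAAATTTTcatCTCATC
NOP7, chrVII:695276-695293, plus strand: AAAATTTTTtgcGATGAG
NOP1, chrIV:427139-427165, plus strand: AAAATTTTTcaaattggaaagCTCATC
NOP58, chrXV:898477-898495, minus strand: AAAATTTTTcaacCTCATC
UTP21, chrXII:937339-937367, minus strand: AAAAATTTTgagaaaaatttcgcGATGAG
TSR1, chrIV:341488-341510, plus strand: AAAAATTTTcagttctgCTCATC
NOP56, chrXII:545970-545994, plus strand: GATGAGatgggaaatgAAAAATTTT
RRPE lay farther from the start than PAC in 19 of the 24 members with both, and NOP56 was among the exceptions. The nearest such pair spanned 18 to 52 bases with a median of 28. In 23 of the 24 the pair lay wholly upstream of the start cluster, and in UTP25 it did not.

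The promoters of the members at the ends of the wild-type response show the same region at length, as 160 bases that end at the upstream edge of the start cluster. BRX1 had the lowest Wald statistic and RRP42 the highest, and capitals mark the elements as above.
BRX1, chrXV:186793-186952, minus strand: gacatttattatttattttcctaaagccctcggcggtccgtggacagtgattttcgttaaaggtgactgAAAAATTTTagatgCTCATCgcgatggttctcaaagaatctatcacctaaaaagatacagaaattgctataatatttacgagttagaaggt
RRP42, chrIV:264181-264340, minus strand: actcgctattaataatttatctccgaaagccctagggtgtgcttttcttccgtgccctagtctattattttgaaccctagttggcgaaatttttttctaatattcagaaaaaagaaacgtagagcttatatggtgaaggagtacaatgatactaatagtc
NOP15 is added because it was called in snf2Q928K with DTT, and its core PAC appears as 2 copies that overlap by a base.
NOP15, chrXIV:418549-418708, minus strand: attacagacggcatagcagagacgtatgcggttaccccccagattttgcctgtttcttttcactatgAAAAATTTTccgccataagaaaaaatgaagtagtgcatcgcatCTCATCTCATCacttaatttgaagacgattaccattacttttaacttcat
The RRP42 window holds none of the searched letters, which says only that they are not in these bases.

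Start clusters of the members were compact and close to the coding sequence. Their median width was 40 bp, from 8 to 130 bp, against 44 bp over all genes. In 49 members the middle of the cluster lay upstream of the coding start, at a median of 39 bp against 45.5 bp over all genes. UTP22 was the farthest at 269.5 bp. The clusters of RIX1 and UTP4 had their middle inside the coding region. Of the 39 members with core PAC, 38 had a copy upstream of the cluster, and the nearest lay at a median of 50 bp from its upstream edge. For RRPE this was 30 of 31 members, at a median of 69 bp and between 27 and 103 bp.

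**Figure D1:**
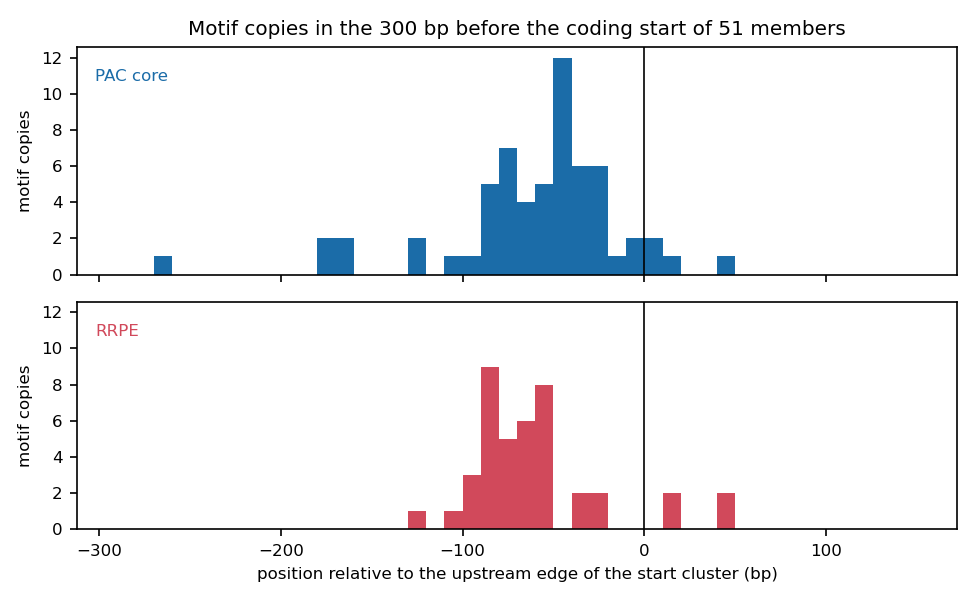
Positions of all core PAC (top) and RRPE (bottom) matches in the 300 bp before the coding start of the 51 members, in bp from the upstream edge of the start cluster (negative is upstream), in bins of 10 bp; overlapping matches are counted separately. PAC matches gather nearer to the start cluster than RRPE matches, with medians of 50 and 69 bp for the nearest upstream copy per member.

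The comparison of DTT with untreated wild type asks how these genes respond to stress in the endoplasmic reticulum. Start-site counts fell in 25 of the 51 members, with an adjusted p under 0.05 in the authors' deposited table (DESeq2 Wald test, Benjamini-Hochberg over all clusters). The background was 17.3% of clusters called lower and 16.5% called higher. No member was called higher, and 0 had a higher value at an unadjusted p under 0.05. The median log2 fold change of the members was -0.98, against 0.01 over all clusters, and 49 of the 51 values were below 0. By role, the fall was called in 7 of 19 SSU processome factors (median log2 fold change -1.05), 4 of 4 snoRNP proteins (-1.11), 9 of 15 factors of 60S assembly (-1.15), 5 of 7 factors of late 40S maturation (-0.92) and 0 of 6 exosome subunits (-0.44). In RNA of a whole culture, less RNA per cell and fewer cells that make it cannot be told apart, and normalized counts give changes relative to the other clusters.

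**Figure D2:**
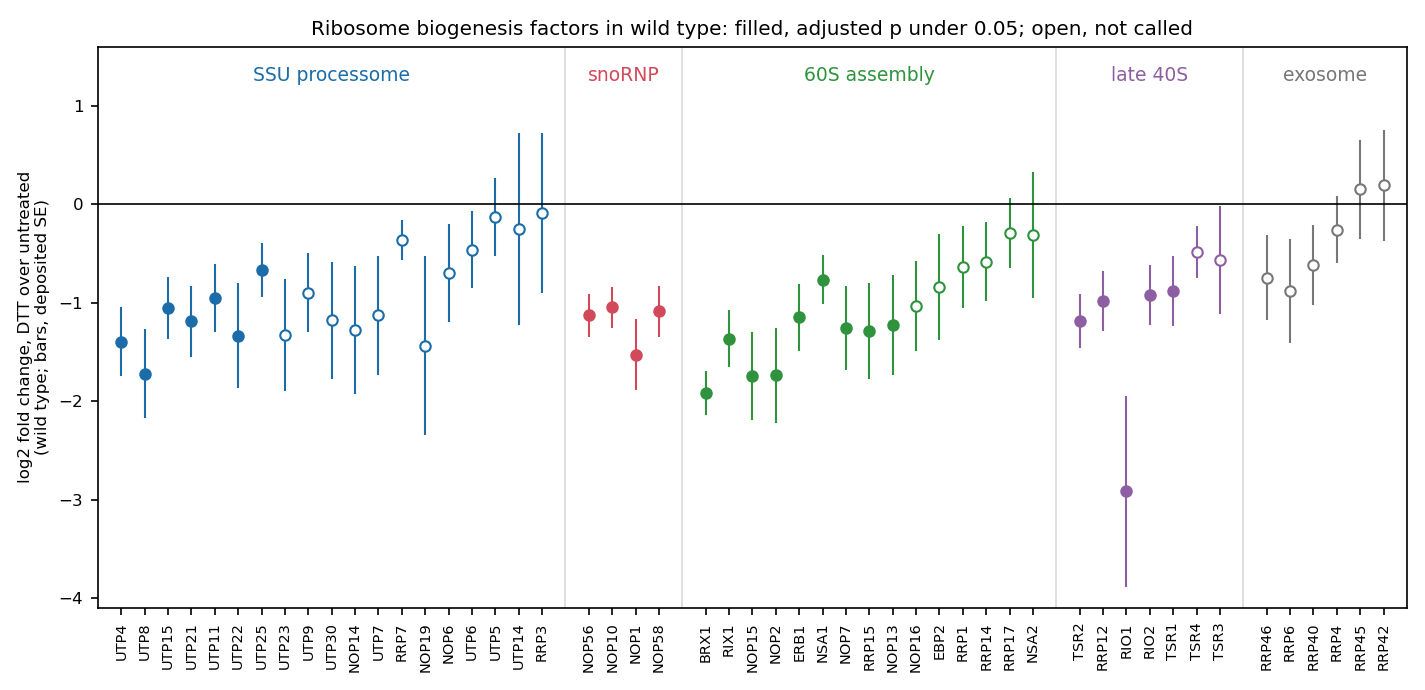
Log2 fold change of the start cluster of each member with DTT over untreated wild type, grouped by role and ordered by the Wald statistic; bars are the deposited SE, filled points were called lower and open points were not called. By that statistic the points run from BRX1 at -1.92 to RRP42 at 0.20, 49 of 51 lie below 0, and RIO1 is the lowest at -2.92.

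BRX1, whose product joins the early 60S particle, had the strongest fall by its test. Its untreated means were 3530.5 in SWI3, 4057.5 in SNF2, 2499.2 in swi3E815X, 3901.7 in snf2W935R and 2280.4 in snf2Q928K. With DTT they were 998.5, 1009.6, 1127.5, 1339.5 and 1578.7 in the same order. All 5 DTT means were below all 5 untreated means, and the wild types were close to each other under DTT. In the authors' deposited table (DESeq2) the wild-type change was -1.92 ± 0.23 (log2, SE), which is 3.78-fold lower, with an adjusted p of 2.31e-15.

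Besides BRX1, 8 other members of the 60S assembly role fell, by amounts from -0.77 to -1.75. RIX1, which encodes a subunit of the Rix1 complex of the maturing 60S particle, went from 501.9 to 187.6 in SWI3 and from 377.8 to 153.7 in SNF2 (log2 -1.37 ± 0.29, adjusted p 2.12e-05 in the authors' deposited table, DESeq2). NOP15, whose product binds RNA in early 60S particles, went from 2232.0 to 1148.4 in SWI3 and from 5258.1 to 1084.6 in SNF2 (log2 -1.75 ± 0.45, adjusted p 0.000634 in that table, DESeq2). The wild types were far apart for NOP15 before DTT and close after it. The other 6 called members of this role were NOP2, a methyltransferase of 25S rRNA, at -1.74, ERB1 at -1.15 and NOP7 at -1.26, whose products act in 1 complex, NSA1 at -0.77, RRP15 at -1.29 and NOP13 at -1.22. The 6 members not called were NOP16 at -1.03, EBP2 at -0.84, RRP1 at -0.64, RRP14 at -0.58, NSA2 at -0.32 and RRP17 at -0.29 in the authors' deposited table.

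The snoRNP role holds the proteins of the modification machinery, and each of its 4 members fell. NOP1, the fibrillarin methyltransferase of box C/D particles, went from 3591.7 to 1213.7 in SWI3 and from 1853.9 to 680.8 in SNF2. Its partners NOP56 and NOP58 went from 1119.2 to 473.0 and from 1543.3 to 854.4 in SWI3, and from 931.9 to 466.7 and from 2033.5 to 829.9 in SNF2. NOP10, a core protein of the H/ACA particles that make pseudouridine, went from 1505.4 to 765.2 in SWI3 and from 1342.7 to 610.6 in SNF2. In the authors' deposited table (DESeq2) the changes were -1.53 ± 0.36 for NOP1, -1.13 ± 0.22 for NOP56, -1.09 ± 0.26 for NOP58 and -1.05 ± 0.21 for NOP10, with adjusted p between 2.63e-06 for NOP56 and 0.000164 for NOP58. For each of the 4, all DTT group means over the 5 strains were below all untreated means.

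In the SSU processome, called members came from several of its subcomplexes. UTP4, UTP8 and UTP15 encode subunits of UTP-A, which binds the 5′ end of the precursor as it is made. UTP4 went from 185.2 to 88.7 in SWI3 and from 214.6 to 63.3 in SNF2 (log2 -1.39 ± 0.35, adjusted p 0.000438 in the authors' deposited table, DESeq2). UTP8 went from 335.1 to 179.8 and from 670.9 to 125.8 (-1.72 ± 0.45, adjusted p 0.000798 in that table, DESeq2), and UTP15 from 196.9 to 118.7 and from 263.6 to 103.1 (-1.05 ± 0.32, adjusted p 0.00409). The UTP-A members UTP5 and UTP9 had -0.13 and -0.90 and were not called. Of UTP-B, UTP21 was called at -1.19 and UTP6 was not at -0.46. Of UTP-C, UTP22 was called at -1.33, on only 43.8 mean normalized counts, and RRP7 was not at -0.36. UTP11 at -0.95 and UTP25 at -0.66 were also called in the authors' deposited table. The other members not called were UTP23 at -1.33, NOP19 at -1.44, NOP14 at -1.28, UTP30 at -1.18 and UTP7 at -1.13. The group means of the wild types differed for these, with no test. Their log2 ratios of DTT to untreated group means in SWI3 and SNF2 were -0.50 and -2.10 for UTP23 and -0.63 and -3.05 for NOP19. They were -0.09 and -1.88 for NOP14, -0.06 and -2.06 for UTP30 and -0.07 and -1.71 for UTP7. Some rested on low counts, with SNF2 means under DTT of 4.9 for NOP19 and 19.4 for UTP30. NOP6 at -0.70, UTP14 at -0.25 and the helicase gene RRP3 at -0.09 were not called either.

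Late 40S factors bind the small subunit on its way to and in the cytoplasm. TSR2, the gene of a chaperone for a protein of the small subunit, went from 322.0 to 157.1 in SWI3 and from 386.1 to 154.1 in SNF2 (log2 -1.18 ± 0.28, adjusted p 0.000136 in the authors' deposited table, DESeq2). RRP12, whose product takes part in export of the subunits, went from 690.7 to 411.4 and from 976.7 to 430.8 (-0.98 ± 0.30, adjusted p 0.00548 in that table, DESeq2). RIO1, the gene of an atypical protein kinase, had the lowest value of all members at -2.92 ± 0.97 (adjusted p 0.0107, DESeq2, in the authors' deposited table). It rested on very low counts, 18.4 and 59.2 untreated and 8.7 and 1.6 with DTT in SWI3 and SNF2. The related kinase gene RIO2 was called at -0.92, and TSR1 at -0.88. TSR3 at -0.57 and TSR4 at -0.48 were not called.

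The exosome trims and degrades RNA beyond the ribosomal precursor, and its 6 measured subunits were not called. RRP46, a subunit of its ring, had the lowest Wald statistic, with 90.1 and 193.0 untreated and 72.8 and 96.8 with DTT in SWI3 and SNF2 (log2 -0.74 ± 0.43). RRP6, the nuclear nuclease, had -0.88 ± 0.53, and RRP40, a cap subunit, -0.62 ± 0.41 in the authors' deposited table. RRP4 had -0.26 ± 0.34. RRP45 and RRP42 had the only values above 0, 0.15 ± 0.50 and 0.20 ± 0.56. Their 95% intervals, from -0.83 to 1.13 and from -0.91 to 1.30, are wide. No test compared the exosome with the other roles.

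Depth differed between called and uncalled members. The 25 called members had a median level of 351 mean normalized counts and a median SE of 0.35, and the 26 others had 128 counts and 0.50. A member that was not called is therefore not shown to be unchanged. By promoter element the median log2 fold change was -1.04 in the 24 members with both (13 called lower). It was -0.95 in the 15 with core PAC alone (6 called). With RRPE alone it was -1.05 in 7 members (5 called), and with neither -0.74 in 5 members (1 called). Over all clusters 17.3% were called lower. The members with neither were the exosome subunits RRP42 (0.20), RRP45 (0.15) and RRP46 (-0.74), and UTP22 (-1.33) and UTP30 (-1.18). Element and role are thus mixed, and no test compared these groups.

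The rest of the pathway was read from lists of genes that are not members, some of them in several lists. Against the background of 17.3% of clusters called lower and 16.5% higher, 15 of 39 further genes of small-subunit assembly were called lower (38.5%) and 0 higher in wild type with DTT. The lowest value was that of the helicase gene DHR2 at -2.35 ± 0.95. It rested on low counts, 44.8 untreated and 8.8 with DTT over both wild types. NAN1, another UTP-A subunit, had the lowest Wald statistic at -1.57 ± 0.30. The highest was the casein kinase 2 subunit CKA2 at 0.50 ± 0.30, which was not called. Of 53 genes of large-subunit assembly 29 were lower (54.7%) and 0 higher. The helicase gene DBP3 had the lowest value at -2.29 ± 0.81, and HAS1, another helicase gene, the lowest Wald statistic at -1.81 ± 0.26. The highest was MTQ2, whose product methylates a release factor, at 0.09 ± 0.28, not called. Of 29 snoRNP and modification genes 10 were lower (34.5%) and 1 higher (3.45%) in the authors' deposited table. The lowest was SRP40, a nucleolar chaperone of snoRNPs, at -2.42 ± 0.28, and the higher gene was NAF1, an H/ACA assembly factor, at 1.16 ± 0.36 (217.6 counts untreated and 484.4 with DTT over both wild types). The middle of the NAF1 cluster lay 847 bp inside the coding region, so its counts are not those of a start at the promoter.

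RNA polymerase III makes 5S ribosomal RNA and the transfer RNAs, beside polymerase I with its large precursor. Of 12 measured polymerase I genes 5 were lower (41.7%) and 0 higher, from RPA43 at -1.58 ± 0.31 to RRN5 at 1.42 ± 0.82, which was not called. Of 22 polymerase III genes 3 were lower (13.6%, below the background share) and 0 higher. The lowest value was that of the subunit gene RPC31 at -1.55 ± 0.38, and RPC40, a subunit shared by both polymerases, had the lowest Wald statistic at -1.37 ± 0.22. The highest was the TFIIIC gene TFC8 at 0.72 ± 0.74, not called. Among the regulators 5 of 15 had a cluster. TOD6, the gene of a PAC-binding repressor, fell from 2062 to 633 counts (-1.70 ± 0.40, adjusted p 0.000134 in the authors' deposited table, DESeq2). Its paralogue DOT6 had -0.44 ± 0.35, and the histone deacetylase gene RPD3 0.50 ± 0.43. KOG1, a subunit of the TOR kinase complex, had 0.44 ± 0.36 and PIB2, an activator of that kinase, 0.43 ± 0.44, and neither was called. Of the 131 ribosomal protein genes 128 were called lower.

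The response was next read in each strain from the group means, as a description with no test. The median log2 ratio of DTT to untreated over the 51 members was -0.67 in SWI3, -1.14 in SNF2, -0.59 in swi3E815X, -0.63 in snf2W935R and -0.49 in snf2Q928K. It was below 0 in 47, 48, 45, 46 and 45 members. In 36 members it was below 0 in all 5 strains, as it was in 26.3% of all clusters. In 19 members (37.3%) all 5 DTT means lay below all 5 untreated means, against 14.5% of all clusters. They were BRX1, ERB1, NOP1, NOP2, NOP7, NOP10, NOP19, NOP56, NOP58, NSA1, RIX1, RRP6, TSR1, TSR2, UTP8, UTP15, UTP21, UTP25 and UTP30, and 16 of them were called in wild type, which shares its libraries with this count. RRP42 was the only member with a ratio above 0 in every strain, from 0.02 in SNF2 to 1.06 in snf2Q928K.

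**Figure D3:**
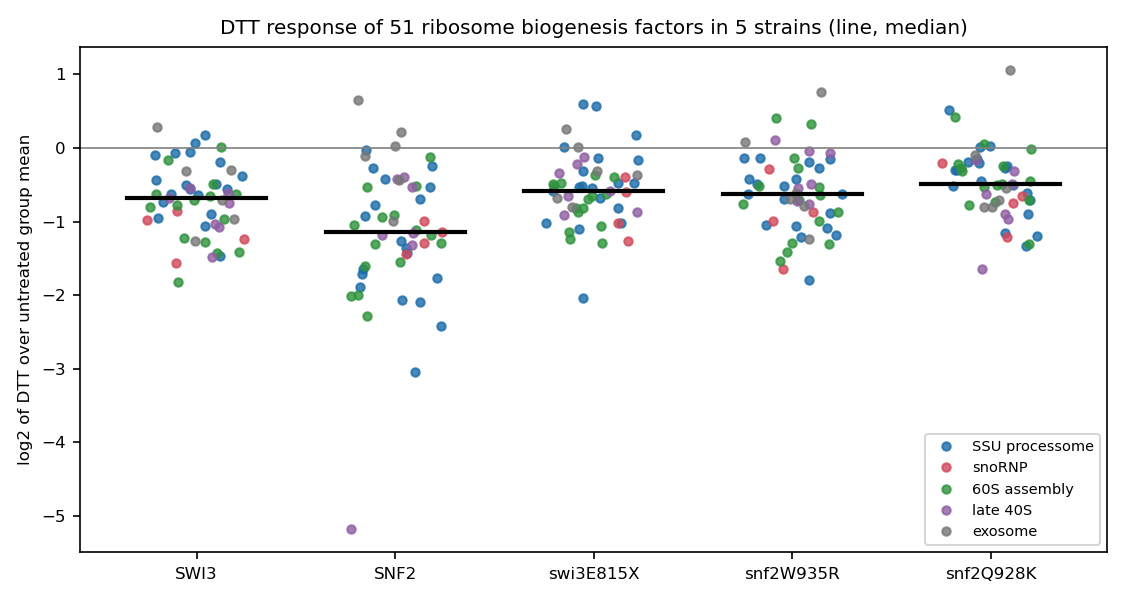
Log2 ratio of the DTT to the untreated group mean for each of the 51 members in each strain, coloured by role; the black line is the median, and horizontal scatter is for display. The medians run from -1.14 in SNF2 to -0.49 in snf2Q928K, and the point at -5.19 in SNF2 is RIO1, whose DTT mean there was 1.6 counts.

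The group means of both wild types stood apart before DTT. The median log2 ratio of SWI3 to SNF2 over the members was -0.26 untreated, with 34 of 51 lower in SWI3, and 0.03 with DTT. Among ribosomal proteins it was 0.34 untreated. The members farthest apart untreated, all lower in SWI3, were NOP14 at -1.85 (100.8 against 364.5 counts), RIO1 at -1.69 and UTP7 at -1.66. Among members higher in SWI3, RRP40 at 0.96 was the farthest. No test is possible without values per library, and each mutant table uses only 1 of the wild types. The effects of the mutants below are relative to the wild type of their table, and values against the other wild type are ratios of group means with no test.

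swi3E815X changes the Swi3 subunit, and its tables set it against the SWI3 wild type. No member was called untreated, where 1.81% of clusters changed, and 1 had an unadjusted p under 0.05 in the authors' deposited table (DESeq2). The largest Wald statistics were those of NOP56 at -0.71 ± 0.32 (1119.2 counts in SWI3 and 685.6 in the mutant, adjusted p 0.387), RIX1 at -0.69 ± 0.37 and NOP6 at 0.89 ± 0.51. With DTT no member was called either, where 1.39% of clusters changed, and 0 had an unadjusted p under 0.05. EBP2 had 0.84 ± 0.45, RRP40 0.80 ± 0.44 and ERB1 0.68 ± 0.40 there in the authors' deposited table. The median over the members was -0.02 untreated and 0.20 with DTT, and 40 of 51 values were above 0 with DTT. Several of these values depend on the wild type. Against SNF2, NOP56 had -0.44, RIX1 -0.28 and NOP6 the opposite sign at -0.33 untreated, and EBP2 had 0.10, ERB1 0.19 and RRP40 0.90 with DTT. The difference between both effects, which is the mutant's change of the DTT response, was called in 0 members against 0.0386% of clusters (normal test of the difference of DESeq2 log2 fold changes, Benjamini-Hochberg), and 0 had an unadjusted p under 0.05. NOP56 came nearest at 0.85 ± 0.44, with UTP21 at 0.99 ± 0.61 and RRP40 at 0.98 ± 0.63, and against SNF2 these were 0.60, 0.44 and 0.12.

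snf2W935R and snf2Q928K change the ATPase subunit Snf2. Untreated, snf2W935R had 0 members called against 2.74% of clusters, and 0 had an unadjusted p under 0.05 in the authors' deposited table (DESeq2). NOP15 had -0.94 ± 0.53, UTP30 -1.20 ± 0.83 and RRP46 -0.80 ± 0.56. All 3 changed sign against SWI3, to 0.30, 0.16 and 0.30 in the same order. With DTT 0 members were called against 5.37% of clusters, and 7 had an unadjusted p under 0.05, all with higher values. NOP15 had 2498.8 counts in the mutant and 1084.6 in SNF2 (log2 1.20 ± 0.40, adjusted p 0.0526 in the authors' deposited table, DESeq2). RRP1, a factor of 60S assembly, had 447.0 and 165.5 (1.43 ± 0.52, adjusted p 0.0873), and UTP4 had 179.0 and 63.3 (1.50 ± 0.58, adjusted p 0.115). Against SWI3 the DTT values were 1.12 for NOP15, 0.94 for RRP1 and 1.01 for UTP4. The median over the members was -0.08 untreated and 0.31 with DTT against SNF2, and 0.17 and 0.42 against SWI3. The difference between both effects was called in 0 members against 0.869% of clusters, and 6 had an unadjusted p under 0.05 (normal test, Benjamini-Hochberg). The 3 with the largest statistics were NOP15 at 2.14 ± 0.67 (adjusted p 0.0828), RRP15 at 1.87 ± 0.77 and RRP1 at 1.51 ± 0.67. Against SWI3 they were 0.82, 1.10 and 0.57, and the median difference over the members was 0.10 in place of 0.48.

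snf2Q928K is the mutant in which members were called. Of the 51 members 3 were called higher with DTT and 0 lower, where 7.34% of clusters were called higher and 7.18% lower. The share of members, 3 of 51, is near that background. The median log2 fold change was 0.53 against 0.00 over all clusters, 44 of 51 values were above 0, and the 14 with an unadjusted p under 0.05 were all higher. Of the 131 ribosomal proteins 73 were called higher there, with a median of 0.72.

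The 3 called members were NOP15, RRP1 and NOP10. In snf2W935R with DTT they had 1.20 ± 0.40, 1.43 ± 0.52 and 0.86 ± 0.37 in the same order, and none was called there. NOP15 had 2315.6 counts in snf2Q928K with DTT, against 1084.6 in SNF2 and 1148.4 in SWI3 (log2 1.09 ± 0.25 over SNF2, adjusted p 0.00036 in the authors' deposited table, DESeq2). RRP1 had 386.2 against 165.5 in SNF2 and 232.4 in SWI3 (1.22 ± 0.43, adjusted p 0.0358 in that table, DESeq2). NOP10 had 996.6 against 610.6 and 765.2 (0.71 ± 0.26, adjusted p 0.0477). Set against the other wild type, SWI3, the group means gave 1.01 for NOP15, 0.73 for RRP1 and 0.38 for NOP10, so the values of RRP1 and NOP10 depend on the wild type used. Over all members the median was 0.51 against SWI3, with 45 of 51 above 0. NOP10 was no longer called when fold changes were centred on their median (adjusted p 0.0519, Benjamini-Hochberg).

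Untreated, snf2Q928K had 0 members called against 6.56% of clusters, and 1 with an unadjusted p under 0.05. That was BRX1, with 2280.4 counts against 4057.5 in SNF2 and 3530.5 in SWI3 (log2 -0.83 ± 0.29, adjusted p 0.0544 in the authors' deposited table, DESeq2). UTP8 had -1.01 ± 0.52 and RRP46 -1.07 ± 0.58 against SNF2. Against SWI3 both were near 0, with 333.7 counts in the mutant and 335.1 in SWI3 for UTP8, and 91.6 and 90.1 for RRP46. The median over the members was -0.07 against SNF2 and 0.16 against SWI3.

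BRX1 was the only member for which a change of the DTT response in snf2Q928K was called, and the others are not shown to be unchanged. The effect of this mutant on BRX1 was 0.64 log2 units with DTT and -0.83 untreated. The difference was 1.48 ± 0.40 (95% interval 0.70 to 2.25, adjusted p 0.0242, normal test of DESeq2 log2 fold changes, Benjamini-Hochberg over all clusters). It was 1 of 51 members, where 0.771% of clusters had a positive and 0.636% a negative difference called. In snf2Q928K BRX1 went from 2280.4 to 1578.7 counts with DTT, and in SNF2 from 4057.5 to 1009.6, so both means of the mutant lay between those of SNF2. Against the SWI3 wild type the difference was 1.29. Relative to SNF2, UTP8 had a larger and less precise difference, 2.12 ± 0.71 (adjusted p 0.109), from 333.7 to 271.6 counts in the mutant and from 670.9 to 125.8 in SNF2. NOP15 had 1.57 ± 0.57 and RRP1 1.54 ± 0.59, neither called. These did not keep their size against SWI3, where UTP8 had 0.60, NOP15 0.26 and RRP1 0.60. The median difference was 0.65 over the members and 0.07 over all clusters, and 42 of 51 values were above 0. With SWI3 as the wild type the median of the members was 0.26, with 40 of 51 above 0.

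**Figure D4:**
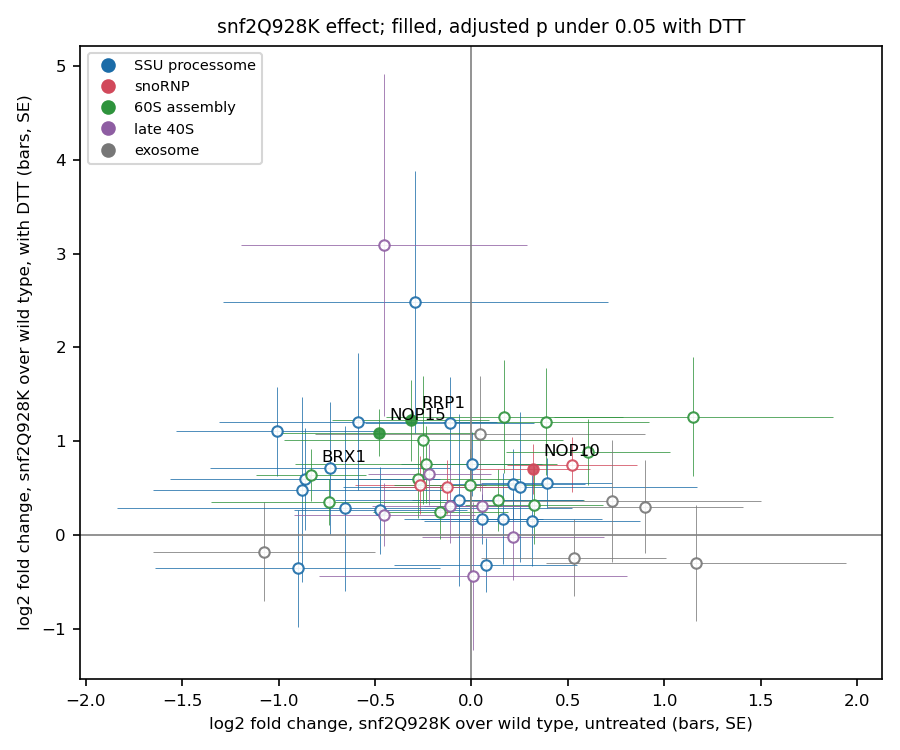
Effect of snf2Q928K on each member as log2 fold change over the SNF2 wild type, untreated on the horizontal axis and with DTT on the vertical axis, with deposited SEs as bars; filled points (NOP15, RRP1 and NOP10) were called with DTT. Most members sit above 0 on the vertical axis (44 of 51) and on both sides of 0 on the horizontal axis, and BRX1 is labelled for its called difference. Both axes use different libraries.

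No member was called between the snf2 mutants. The difference snf2Q928K minus snf2W935R was called in 0 members untreated against 0.174% of clusters, and in 0 with DTT against 0.289% (normal test of DESeq2 log2 fold changes, Benjamini-Hochberg). No member had an unadjusted p under 0.05 in either. Untreated, BRX1 had -0.77 ± 0.41 (95% interval -1.57 to 0.03), UTP8 -0.88 ± 0.74 and NOP58 -0.36 ± 0.49. With DTT UTP25 had 0.87 ± 0.46 (95% interval -0.03 to 1.77), RRP14 0.94 ± 0.57 and NOP1 0.72 ± 0.47. Both tables share the SNF2 libraries, which cancel in the difference, so these SEs are too large, and the intervals leave room for differences of over 2-fold.

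**Figure D5:**
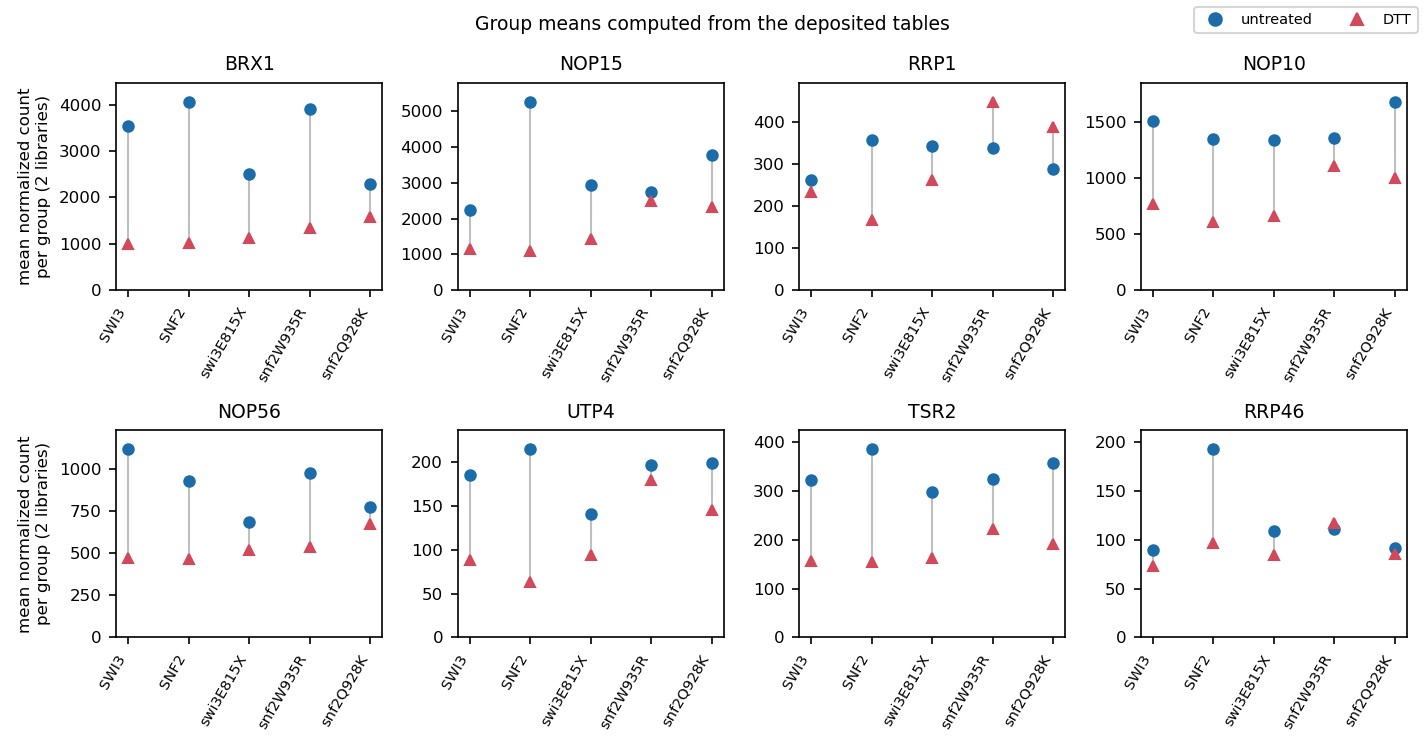
Group means (mean normalized counts, 2 libraries each, no error available) of 8 members in the 5 strains, untreated (circles) and with DTT (triangles), each panel from 0 on its own scale. BRX1, NOP10, NOP56 and TSR2 have all triangles below all circles, while RRP1 in snf2W935R and snf2Q928K and RRP46 in snf2W935R have the triangle above the circle.

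Of the pathway genes that are not members, several were called in snf2Q928K with DTT. In small-subunit assembly 3 of 39 were higher (7.69%, near the 7.34% of all clusters) and 1 lower. The highest by Wald statistic was NSR1, the yeast nucleolin, at 1.51 ± 0.31, and the lower gene was CKB2, a casein kinase 2 subunit, at -0.65 ± 0.24. In large-subunit assembly 7 of 53 were higher (13.2%) and 0 lower, among them the helicase genes DBP2 at 1.42 ± 0.31, DBP3 at 1.24 ± 0.35 and HAS1 at 1.06 ± 0.32. In the snoRNP list 5 of 29 were higher (17.2%) and 0 lower, with SRP40 at 1.56 ± 0.28 and SNU13, the partner of NOP1, NOP56 and NOP58 in box C/D particles, at 1.12 ± 0.29 in the authors' deposited table. The polymerase I list had 0 of 12 called and the polymerase III list 2 of 22 higher (9.09%, near the background). Those 2 were RPC10 at 0.89 ± 0.27 and RPB8 at 0.88 ± 0.28. Both encode subunits that polymerase I shares, so these counts do not separate the polymerases. TOD6 was higher too, at 1.22 ± 0.32 (adjusted p 0.00213, DESeq2, in the authors' deposited table). Against SWI3 the group means gave 0.86 for NSR1, -0.15 for CKB2, 0.83 for DBP2, 1.13 for DBP3 and 1.04 for HAS1. SRP40 had 1.17, SNU13 0.79, TOD6 0.73, RPC10 0.47 and RPB8 0.13. The other genes called higher, against SNF2 and SWI3, were BUD21 at 1.07 and 0.18, BUD23 at 1.03 and 0.66, and CBF5 at 0.73 and 0.28. NHP2 had 0.66 and 0.52, NOG1 0.88 and 0.45, TIF6 0.94 and 0.46, ALB1 1.16 and 0.76, and RPF2 0.85 and 0.77. The size of many of these values thus depends on the wild type used. In snf2W935R with DTT 5.37% of clusters were called. Of these lists, 1 of 53 large-subunit genes was higher, and 1 of 29 snoRNP genes was higher and 1 lower. The small-subunit, polymerase and regulator lists had 0 called. The higher genes were SRP40 at 1.91 ± 0.38 and DBP3 at 1.32 ± 0.42 in the authors' deposited table. The lower one was the nuclear exonuclease gene RAT1 at -1.18 ± 0.37. Against SWI3 these were 1.52, 1.22 and -0.39. The SRP40 difference between treatments was called in both snf2 mutants, at 2.01 ± 0.51 in snf2W935R and 1.71 ± 0.43 in snf2Q928K, and was 1.73 and 1.43 against SWI3.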

How the data were processed

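TL-seq libraries were described by 7 deposited comparison tables. The submitters' processing notes name cutadapt, HISAT2 and DESeq2 and the build sacCer3/R64; no parameters are stated. Per the file headers, table rows are CAGEr consensus clusters. The authors' mean normalized count is a signal (counts over size factors), their log2 fold change and SE are on the log2 scale, the deposited Wald statistic is the score by which genes were ranked, and the authors' p-value columns include a Benjamini-Hochberg adjustment over all clusters, which a recalculation matched within 0.000793.

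Group means followed from each mean count and fold change. The wild-type table equalled a weighted sum of the wild-type arms of a swi3 and a snf2 table with a median residual between 0.0530% and 0.0837%, and the weights put all groups on 1 scale. The 2 emptied lines per table were not used. Differences of effects used the root of the summed squared SEs and a two-sided normal test. Simulated data, drawn with those same SEs and large true differences, checked only the calculation. They cannot show that the SEs hold for groups of 2 libraries. No values per library were given, so depth, SD and n per library are unknown, and replicates from separate days cannot be compared. Members and lists were chosen with earlier results of these data known, and 5 genes listed by mistake were removed afterwards. Named genes are the 3 lowest Wald statistics per role in wild type, the uncalled members and every called member; in mutants every called member or the 3 largest statistics; in other lists the ends and the called genes with the largest changes, chosen after their values were seen. The tables and the R64 genome agreed in chromosome, strand and coding start for all 51 members, and promoters were read from it. Alternatives were an adjusted p under 0.01, a 2-fold change, 50 mean normalized counts, centring on the median, clusters upstream of the coding start and, for mutants, the other wild type. The scripts ran on scipy 1.17.1, numpy 2.4.6, pandas 2.3.3 and python 3.11.15, with matplotlib 3.10.9 for figures.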

Additional observations from a re-analysis of the deposited data

Results flagged for a closer look

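BRX1 had a DTT response in snf2Q928K that differed from that of the SNF2 wild type by a test of the difference itself. The log2 effect of the mutant with DTT minus its effect untreated was 1.48 ± 0.40 (adjusted p 0.0242, normal test of DESeq2 log2 fold changes, Benjamini-Hochberg over all clusters). The number of libraries that show this direction is unknown.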

How the results depend on the processing

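At an adjusted p under 0.01 the members called lower in wild type with DTT went from 25 to 16, those called higher in snf2Q928K with DTT from 3 to 1 (NOP15), and those with a called difference in snf2Q928K from 1 to 0. With clusters under 50 mean normalized counts left out, 1 member (NOP15) was called higher in snf2W935R with DTT and 1 (BRX1) lower in untreated snf2Q928K, where the full adjustment called 0; fewer clusters were tested there. The wild-type count was 19 with a 2-fold limit, 22 with centring, which left out TSR1, UTP25 and NOP13, and 23 with clusters upstream of the coding start. No called direction reversed under these alternatives, and the other counts of called members stayed within 1.5 times. Exchanging the wild type, an alternative chosen after seeing the data, moved the medians of the members. Untreated they went from -0.02 to -0.28 in swi3E815X, from -0.08 to 0.17 in snf2W935R and from -0.07 to 0.16 in snf2Q928K. The median differences between treatments went from 0.11 to 0.48, from 0.48 to 0.10 and from 0.65 to 0.26 in the same order, while the medians with DTT stayed within 1.5 times. The cause was not tested. No paired analysis was possible because the tables hold no values per library, and leaving out replicates was not run for the same reason.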

Other observations

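Start clusters just upstream of a member often belong to another gene or to none. Within 1000 bp upstream, 22 members had 27 clusters on the opposite strand, of which 7 were called lower, 7 higher and 13 not called in wild type with DTT, where 17.3% of all clusters were lower and 16.5% higher. On the same strand 5 members had 8 clusters, 4 of them higher. These 4 belonged to YNL208W upstream of RIO2 and TMA17 upstream of RRP42. Several of the higher opposite-strand clusters also lay upstream of RIO2, so these counts are not of separate loci. RPN5, a proteasome subunit gene that diverges from NOP14, rose (log2 0.82 ± 0.26, adjusted p 0.00709 in the authors' deposited table, DESeq2). DFM1, an ER-associated degradation gene beside RRP17, rose by 1.37 ± 0.25, and AIP1, an actin regulator gene beside UTP15, by 0.69 ± 0.19 while UTP15 fell by 1.05. The region upstream of RIO2 was the busiest, with YNL208W at 2.21 ± 0.26 and an unassigned opposite-strand cluster at 2.19 ± 0.44 (8215 mean normalized counts) while RIO2 fell by 0.92. That unassigned cluster was called lower in swi3E815X with DTT at -1.21 and in snf2Q928K with DTT at -1.22. Of the 7 clusters called lower, that of the ribosomal protein gene RPS18A, 999.5 bp upstream of UTP6, fell by 1.67. That of RPS29B, another such gene, 850 bp upstream of TSR1, fell by 1.57 ± 0.655 on only 38.7 mean normalized counts. TEF4, a translation elongation factor gene beside RRP14, fell by 1.08. SSF1 beside RRP3 fell by 1.34, and TRM5, a transfer RNA methyltransferase gene beside RRP4, by 1.26. Unassigned clusters fell by 1.41 beside TSR1 and by 0.67 beside RIO1, which fell by 0.88 and 2.92.

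Some members sit next to each other or to other pathway genes in the genome. An adjacent gene from the pathway sets was found for 7 of 51 members (13.7%), against 6.75% of all genes. In the pair PWP1 and NOP56 both were called lower, at -0.94 and -1.13. In UTP9 and RIX1 only RIX1 was called, at -1.37 against -0.90, and in RRP3 and SSF1, which share a promoter region, SSF1 was called at -1.34 and RRP3 was not at -0.09; the differences within these pairs were not tested.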
